A study of Mus musculus with 17 samples.

Results

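Sfi1, Gm21738, Gm10801, Gm10800 and AW822073 are 5 mouse genes that carried sequence calls of tumour against matched control in several animals of an exome study of pancreatic tumours. Members were chosen by gene name, as every line of the deposited mutation table whose gene is one of the 5. The names were picked as Sfi1 and genes taken to be repeat-like, with calls in 2 or more mice. That they are repeat-like was not tested here, and 3 other genes called in over 1 mouse were not picked. The 5 genes hold 22 of 390 calls, 15 of 258 distinct sites and 5 of 209 called genes. A call is a site at which the caller Strelka, which models a tumour together with its matched control, reported an alternate base in the tumour.

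The series comprises 17 mouse samples: 6 pancreatic tissue controls, 1 from each of 6 mice, and 11 pancreatic tumours from the same animals. There were 3 tumours from mouse 3, 2 from each of mice 1, 2 and 6, and 1 from each of mice 4 and 5. The title of the study names GCGR, the receptor for glucagon, whose loss it links to neuroendocrine tumours of the glucagon-producing alpha cells of the islet. The labels record no treatment, and the sources used here do not give the genotype, strain, age or sex of the mice. DNA was captured with a kit that the labels name as a human exome kit, although all samples are mouse.

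Sfi1 encodes a centrin-binding protein of the centrosome, the organelle that organises the microtubules of the mitotic spindle. In yeast, Sfi1 is a long helical protein with internal repeats that each bind a centrin, and it is needed to duplicate the spindle pole body. The other members are known mainly by their database names: symbols that start with Gm are predicted mouse genes, and AW822073 is named after an expressed sequence. Recurrent calls in a tumour gene can mark selection, and in short-read data repeated and near-identical sequences are a known source of recurrent calls as well. Because calls in several mice chose the genes, values are described here with no test, and the mouse is the replicate.

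Each call carries the percentage of tumour reads that show the alternate base, and the same percentage for the control of that mouse. Read depth is unknown for every value, so no interval is given for a percentage. In 19 of the 22 calls the alternate base was also present in the control, against 20.0% of all 390 calls and 16.0% of the 368 calls outside the 5 genes. Over the 22 calls the median was 2.90% in the tumour and 1.73% in the control. Over all calls the medians were 13.6% and 0%. With each mouse counted once, the tumour mean of the 5 genes was 3.69% ± 0.538 and the control mean 1.45% ± 0.209 (SD, n = 6 mice). The mice differed in which of the genes were called, so these SDs also hold differences between genes.

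**Figure D1:**
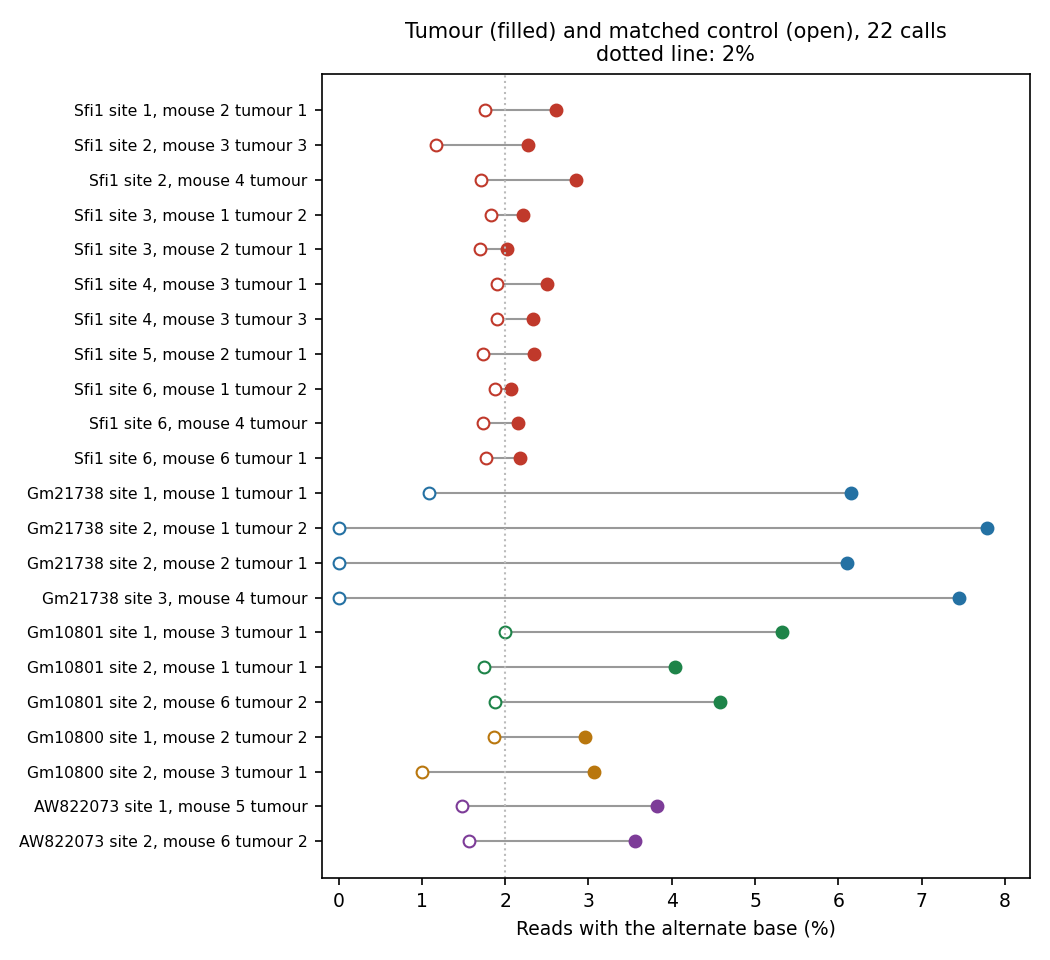
Percentage of reads with the alternate base (horizontal axis) in the tumour (filled points) and matched control (open points) for each of the 22 calls, numbered by site within its gene. The 11 Sfi1 calls lie within 2.02 to 2.85% in tumours and 1.17 to 1.90% in controls, and the 4 Gm21738 calls reach 6.10 to 7.79% in tumours.

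Sfi1 (ENSMUSG00000023764, chromosome 11) had 11 calls at 6 sites in 6 tumours of 5 mice. Mouse 5 had none, and its only tumour had 7 calls in all. Of the 6 sites, 5 changed an amino acid of the protein, which the table gives as 1216 residues long, and 1 lay in a splice region. Residues are counted from the start of the protein.

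The change R152Q, at position 3177444, was called in mice 1, 4 and 6. The tumour values were 2.07% in tumour 2 of mouse 1, 2.15% in the tumour of mouse 4 and 2.18% in tumour 1 of mouse 6. The control values of these animals were 1.88%, 1.73% and 1.77%. Each group was narrow, with a tumour mean of 2.13% ± 0.0570 and a control mean of 1.79% ± 0.0797 (SD, n = 3 mice). That each tumour exceeded its control follows from the calling, which requires such an excess. The excess of tumour over control was small in each animal, at 0.189, 0.417 and 0.417 percentage points.

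The change A684E, at position 3142342 in exon 21 of 33, was called in mice 3 and 4. It stood at 2.27% in tumour 3 of mouse 3 against 1.17% in the control, and at 2.85% in the tumour of mouse 4 against 1.71%. These were the widest gaps of any Sfi1 call, at 1.10 and 1.14 points and ratios of 1.94 and 1.66. The splice-region site at position 3143341, in intron 19 of 32, was called in mice 1 and 2. It had 2.21% in tumour 2 of mouse 1 against 1.83% in the control, and 2.02% in tumour 1 of mouse 2 against 1.70%. The latter is the lowest tumour percentage in the table.

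The remaining 3 sites were each called in 1 mouse. R488C, at position 3146172 in exon 15, was at 2.50% in tumour 1 and 2.33% in tumour 3 of mouse 3, whose control had 1.90%. Tumour 2 of that mouse had no Sfi1 call. T876M, at position 3135697 in exon 26, was at 2.61% in tumour 1 of mouse 2 against 1.76%, and M163V, at position 3170690, was at 2.35% in the same tumour against 1.73%.

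Over the 5 mice, Sfi1 calls averaged 2.30% ± 0.144 in the tumour samples and 1.75% ± 0.0730 in their controls, a difference of 0.556 ± 0.205 points (SD, n = 5 mice). The direction of that difference was fixed when calls were made, since a call requires an excess in the tumour. The ratio of tumour to control ran from 1.10 to 1.94, with a median of 1.24. The 8 lowest tumour percentages of the 390 calls were all in Sfi1, and so were the 7 lowest ratios among the 78 calls with control reads. Of 20 calls under 3% in the tumour, Sfi1 held 11. The next lowest tumour value outside the gene was 2.38%, in the mucin gene Muc4, with a control value of 0.

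Gm21738 (ENSMUSG00000095280, chromosome 14), a predicted gene with a listed protein of 226 residues, had 4 calls at 3 sites in mice 1, 2 and 4. Its tumour percentages were the highest of the 5 genes, and 3 of its 4 calls had no alternate reads in the control. I42L, at position 19418803, was at 7.79% in tumour 2 of mouse 1 and at 6.10% in tumour 1 of mouse 2, with 0% in both controls. F40Y, at position 19418808, was at 7.45% in the tumour of mouse 4, again with 0% in the control. M216K, at position 19415891, was at 6.15% in tumour 1 of mouse 1 against 1.09%, a ratio of 5.66. The tumour means of the 3 mice were 6.84% ± 0.685 (SD, n = 3) and their control means 0.181% ± 0.314.

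Gm10801 (ENSMUSG00000075015) and Gm10800 (ENSMUSG00000075014) are predicted genes that lie beside each other on chromosome 2, with 4446 bases between their nearest called sites. In Gm10801, with a listed protein of 167 residues, V59I at position 98662411 was called in mice 1 and 6. It was at 4.04% in tumour 1 of mouse 1 against 1.74% in the control, and at 4.58% in tumour 2 of mouse 6 against 1.88%. S15L, at position 98662280, was at 5.33% in tumour 1 of mouse 3 against 2.00%. The ratios of tumour to control were 2.33 and 2.43 for V59I and 2.66 for S15L.

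In Gm10800, with a listed protein of 219 residues, the calls were at different sites in different mice. R139S, at position 98666857, was at 2.96% in tumour 2 of mouse 2 against 1.86%. H126L, at position 98666895, was at 3.07% in tumour 1 of mouse 3 against 1.00%. The tumours were alike in level, while the controls differed and gave ratios of 1.59 and 3.07.

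AW822073 (ENSMUSG00000058537, chromosome 10; listed protein of 378 residues) was called in mice 5 and 6, at a different site in each. D132N, at position 58224537, was at 3.82% in the tumour of mouse 5 against 1.48% in the control. S70L, at position 58224722, was at 3.56% in tumour 2 of mouse 6 against 1.56%. The ratios were 2.58 and 2.28. In the RefSeq gene table of the build GRCm38.p6, both sites lie inside a protein-coding gene named LOC100504180, and the symbol AW822073 itself was not matched.

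**Figure D2:**
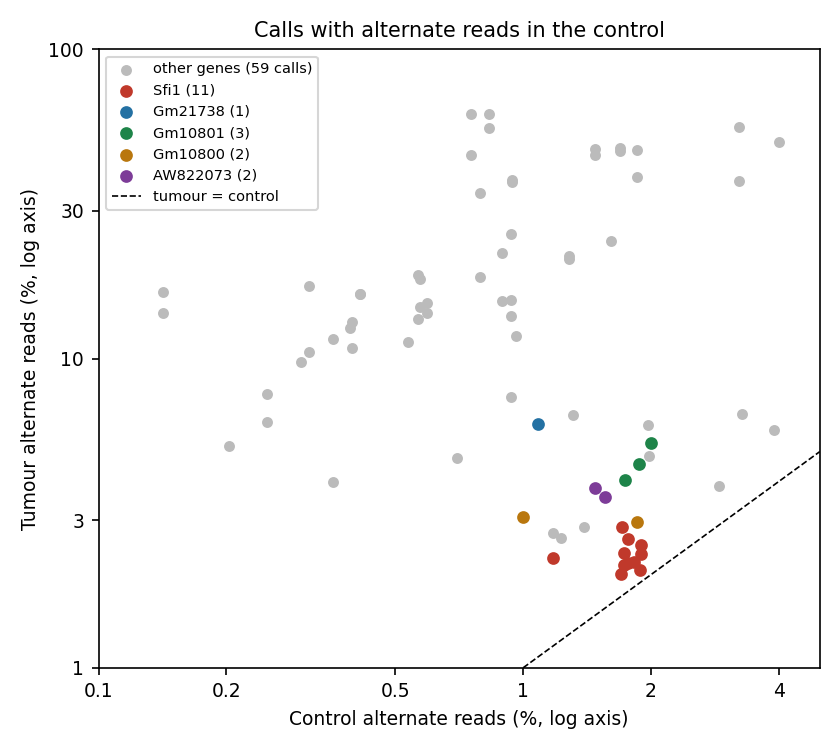
Tumour percentage (vertical, log axis) against control percentage (horizontal, log axis) for the 78 calls with alternate reads in the control; the dashed line marks equal values. Calls of the 5 genes lie at 1.00 to 2.00% in the control with a median ratio of 1.59, and the 59 calls of other genes (grey) have a median ratio of 25.4, or 2.32 over the 7 of them under 5% in the tumour.

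The controls of the 5 genes lay in a narrow band. The 19 control values above 0 all fell from 1 to 2%, and none of the 22 exceeded 2%, while 34 of all 390 calls had a control value from 1 to 2% and 6 had one above 2%. The lowest tumour value in the whole table was 2.02%. The Sfi1 values lay on either side of 2%, with tumours at 2.02 to 2.85% and controls at 1.17 to 1.90%. Whether a limit near 2% was part of the filters is not given in the sources used here.

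Calls of other genes at low tumour percentages give the nearest comparison. Of the 5 genes' calls, 17 were under 5% in the tumour, and control reads were present in each of the 17. Outside the 5 genes, 31 calls were under 5%, and 7 of them (22.6%) had control reads. Among calls under 5% with control reads, the median ratio of tumour to control was 1.48 over the 17 calls of the 5 genes and 2.32 over the 7 of other genes. At all tumour percentages it was 1.59 over 19 calls of the 5 genes, 2.51 over the 8 of them outside Sfi1, and 25.4 over 59 calls of other genes, whose median tumour value was 15.3%. These counts describe genes chosen with the values known, and the difference was not tested.

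The same site was called in different mice in these genes and nowhere else in the table. Of the 15 sites, 5 were called with the same position and base in over 1 mouse: R152Q, A684E and the splice-region site in Sfi1, I42L in Gm21738 and V59I in Gm10801. Over all 258 sites the share was 1.94%, which is these same 5 sites, since 0 of the 243 sites of other genes were called in over 1 mouse. The choice of genes called in several mice favours such sites. Outside the 5 genes, only Muc4, Olfr44 and Vmn2r101, with 2 sites each, were called in over 1 mouse. A gene called in 1 mouse cannot have a site in over 1, so the contrast with other genes was largely set by the choice. The number was 2 without mouse 1, 3 without mouse 2, 4 without mouse 3, 4 or 6, and 5 without mouse 5. Genes with a call in over 1 mouse made up 3.83% of the 209 called genes.

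Sites were also compared between tumours of 1 animal. In the 4 mice with several tumours, the 5 genes had 17 sites, counting each site once in each mouse, and 1 of them (5.88%), R488C in mouse 3, was called in over 1 tumour of its mouse. Sites of other genes were called in over 1 tumour of the mouse in 125 of 226 cases (55.3%). These were counted at all tumour percentages, and the median over the 368 calls of other genes was 14.0%. The 31 calls of other genes under 5% were at 30 sites, and sharing was not counted for these alone. In mouse 1 the numbers were 0 of 5 sites in the 5 genes and 91 of 137 in other genes, and in mouse 2 they were 0 of 5 and 34 of 41. In mouse 3 they were 1 of 4 and 0 of 40, and in mouse 6 they were 0 of 3 and 0 of 8. The higher share in other genes thus came from mice 1 and 2. A site without a call in a tumour is not shown to lack the alternate base there, because the table lists calls only.

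**Figure D3:**
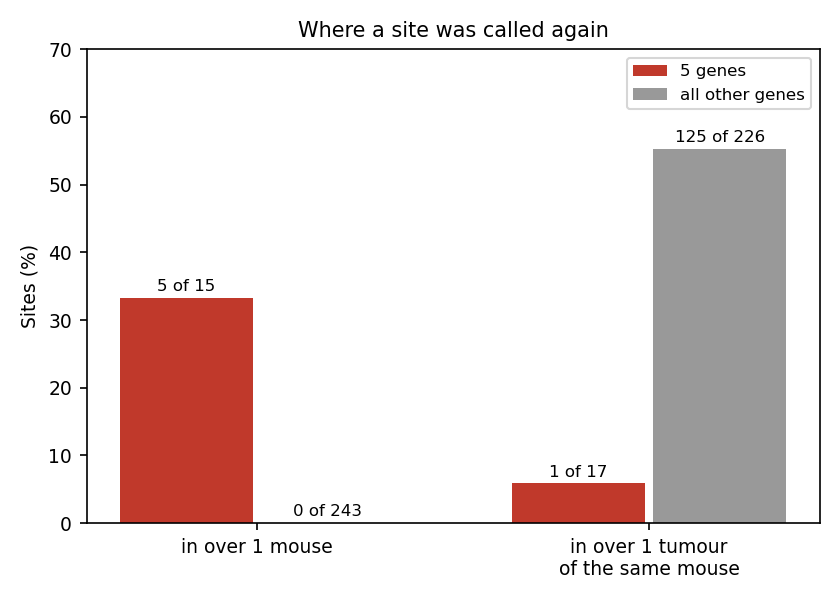
Percentage of sites (vertical axis) called in over 1 mouse (left) and in over 1 tumour of the same mouse (right, 4 mice with several tumours, each site counted once in each mouse), for the 5 genes (red) and all other genes (grey). The 5 genes had 5 of 15 and 1 of 17, and other genes 0 of 243 and 125 of 226. The left contrast was largely set by choosing genes called in several mice. The right contrast was not matched for tumour percentage, and the higher share in other genes came from mice 1 and 2.

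The spread of sites is bounded by the length of a gene. The listed protein of Sfi1 has 1216 residues, and those of the other 4 genes have 167 to 378. The 6 Sfi1 sites spread over 41747 bases, with neighbours 999 to 24518 bases apart, and all 6 lay inside the Sfi1 gene of the RefSeq table. None lay in Gm33862 or Gm11400, an annotated long noncoding RNA and a pseudogene within the same span. In Gm21738, I42L and F40Y were 5 bases apart, and M216K lay 2912 bases from I42L. The sites of Gm10801, Gm10800 and AW822073 were 131, 38 and 185 bases apart.

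With 100 bases as the limit, 4 of the 15 sites were near another site of their gene, against 14.0% of all 258 sites. The near sites of the 5 genes were called in different mice: 0 of the 4 had a neighbour within 100 bases in the same mouse. Over all genes, 32 of 36 near sites had one in the same mouse. A gene called in 1 mouse can have near sites only in that mouse. Only 3.83% of the 209 called genes, the 5 genes among them, were called in over 1. The contrast was thus largely set by the choice of genes. Within 1000 bases the 5 genes had 10 near sites of 15, again with 0 in the same mouse. All genes had 56 of 258, with 40 in the same mouse, and the same limit applies. Near sites in different mice were not particular to the 5 genes. The 2 sites of each of Muc4, Olfr44 and Vmn2r101, the only other genes called in over 1 mouse, were also near at this distance and in different mice.

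**Figure D4:**
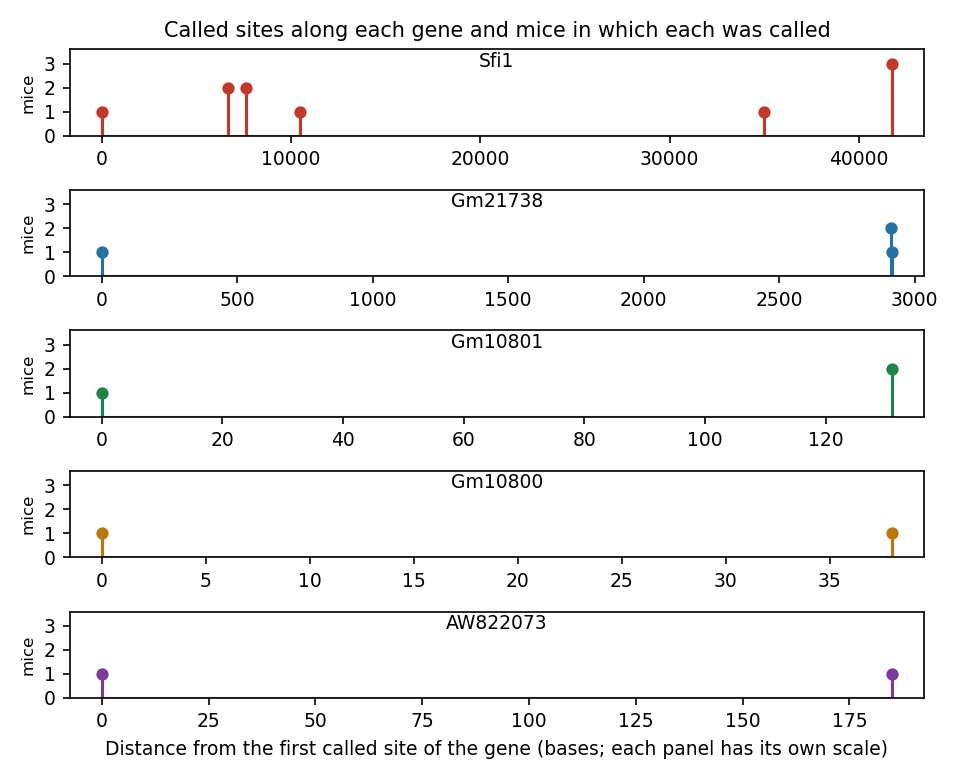
Called sites of each gene at their distance in bases from the gene's first called site (horizontal axis, a separate scale for each gene), with the number of mice in which the site was called (vertical axis). Sfi1 sites spread over 41747 bases with up to 3 mice at 1 site, and the sites of Gm10801, Gm10800 and AW822073 fall within 131, 38 and 185 bases.

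The deposited quality columns were also compared. None of the 22 calls had a site quality score. The score was missing for 44.1% of all calls, and for 80.6% of the 31 calls of other genes under 5% in the tumour. The tier column, read from its name as the set of reads behind Strelka's score, was 2 for 7 of the 22 calls (31.8%), against 13.6% of all calls and 32.3% of those low calls of other genes. By gene, tier 2 was given to 3 of 11 calls in Sfi1, 1 of 4 in Gm21738, 0 of 3 in Gm10801, 1 of 2 in Gm10800 and 2 of 2 in AW822073. A variant-database identifier was attached to none of the 22 calls and to 64 of all 390 calls. Of the 31 calls of other genes under 5% in the tumour, 3 had one. In mouse 2, where 30 of 46 sites had such an identifier, it was 0 of 5 for sites of the 5 genes. Few sites had one in the other mice: 1 of 142 in mouse 1, 3 of 44 in mouse 3 and 1 of 14 in mouse 4. Mice 5 and 6 had 0 of 7 and 0 of 11.

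The kinds of base change were read from the reference and alternate bases. C-to-T changes, counted with their complement, made up 8 of the 15 sites (53.3%) and 4 of the 6 Sfi1 sites, against 25.8% of the 248 single-base sites of the whole table. For a missense change, the genetic code can show whether the changed base stands in a CG pair, the dinucleotide at which mammalian DNA is methylated. T876M requires the codon ACG, R488C requires a codon that starts with CG, and R152Q one that starts with CG as well. These 3 of the 5 missense sites in Sfi1 were thus C-to-T changes in a CG pair. The other 2 were changes of other kinds. In the whole table, 17 of 216 missense sites (7.87%) were shown to be C-to-T changes in a CG pair. Of the rest, 23 were undecided, 12 were not in a CG pair, and 164 were counted as changes of other kinds. In the other 4 genes the code showed a CG pair for none and left 4 sites undecided.

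The number of calls in the 5 genes ranged from 0 to 4 per tumour, while that of all calls ranged from 5 to 125. Taken by animal from mouse 1 to mouse 6 and by tumour number within each, the counts were 2 and 3, 4 and 1, 3, 0 and 2, 3, 1, and 1 and 2. The same tumours had 108, 125, 43, 37, 13, 15, 17, 14, 7, 6 and 5 calls in all. The 5 genes thus made up 1.85 and 2.40% of the calls in mouse 1 and 40.0% (2 of 5 calls) in tumour 2 of mouse 6. In all, 10 of 11 tumours and 6 of 6 mice had a call in the 5 genes, and 5 of 6 mice had calls in over 1 of them. Choosing genes called in several mice favours such wide coverage, so these counts are not read as a trait of the genes.

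Beside these genes, Muc4, the olfactory receptor gene Olfr44 and the vomeronasal receptor gene Vmn2r101 were also altered in 2 mice each, but at different sites in each mouse. Muc4 was closest in level, with P755Q at 2.73% against 1.18% in mouse 2 and Y994H at 2.38% against 0% in mouse 3. Olfr44 had S70P in both tumours of mouse 1 at 6.25 and 7.69%, with 0.249% in the control, and I307fs in both tumours of mouse 2 at 36.4 and 47.9% with 0%. Vmn2r101 had T162A in both tumours of mouse 1 at 3.02 and 9.09%, and G226* in tumour 2 of mouse 3 at 5.47%, all with 0% in the control.

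In a fixed list of 34 other genes, mainly of the centrosome and the centrins, 1 had a call. In all, 209 genes were called, and the number of genes covered is unknown. No share over all genes can therefore stand beside this count, which is not read as high or low. The call was E331A in Cdk5rap2, which encodes a centrosome scaffold protein, at 27.0% in tumour 2 of mouse 1 with 0% in the control (chromosome 4, position 70349238). Its tumour value was well above those of Sfi1, and it was called in that tumour alone.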

How the data were processed

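The authors deposited 1 table with a line for each call in each tumour. Tumour and control allele values are deposited as a fraction from 0 to 1 and printed here as percentages. The tier and the site quality are deposited as a score. Strelka is named per the file headers and contents, and BWA, GATK and the human build GRCh38 are named in the submitters' processing notes without roles. The sources used here do not give the filters. Genes carry mouse identifiers, and 236 of 240 sites whose symbol is in the RefSeq GRCm38.p6 gene table lie inside that gene, so positions are as the file gives them. Only 1 of the 5 genes, Sfi1, was matched there by symbol.

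Of 402 lines, 12 were empty and are not analysed here. Samples were mapped through the labels' descriptions, and controls through the mouse number. A site is a position and alternate base. Ratios use calls with a control value above 0. Exon numbers that had been turned into dates were not used. Tables were made with Python 3.11.15 and pandas 2.3.3, after the counting steps had been tested on simulated data. The members, lists and named genes (the 5 members, other genes altered in several mice, and centrosome genes with a call) were chosen with earlier results of these data known. No genome was used here, so the likeness of these genes to other loci was not tested and no sequence is shown. Alternatives changed the effects counted, minimum fraction, tier, control reads, unit of counting, average, site identity, distance and mice.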

Additional observations from a re-analysis of the deposited data

How the results depend on the processing

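Tumour and control values were paired by mouse, and no paired test was run, because calls are made for an excess in the tumour. Of the 22 calls in the 5 genes, 5 were left at a tumour fraction of at least 0.05, 0 at 0.1, and 3 with a control fraction of 0. Tier 1 alone left 15 and protein-altering calls 20. At a fraction of at least 0.05, Sfi1, Gm10800 and AW822073 had calls in 0 mice, Gm10801 in 1 and Gm21738 in 3. Means in place of medians gave 3.65% in tumours and 1.44% in controls. Without Sfi1, chosen after seeing the data, the medians were 4.58% and 1.48%, the median ratio 2.51, and sites in over 1 mouse 2. Leaving out each mouse in turn gave tumour medians of 2.85 to 3.07%, control medians of 1.73 to 1.74%, ratios of 1.54 to 1.94, control reads in 82.4 to 89.5% of calls, and 2 to 5 sites in over 1 mouse. Near sites numbered 10 within 1000 bases, 2 within 10 and 0 in the same mouse. Read depth is unknown, so differences as small as those of Sfi1 have no counting error beside them.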
